A study of Mus musculus with 19 samples.

Results

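Acid-sensing ion channels (the genes Asic1 to Asic4), the epithelial sodium channel ENaC (Scnn1a, Scnn1b and Scnn1g) and a pair of calcium-activated chloride channel regulators (Clca1 and Clca2) were examined as a set of 9 genes. They were found by the gene name that the array files give each probe, which yielded 12 of the 56605 probes on the array that are not controls. Asic2 and Clca1 had been selected because their signal was lower in C451A-ERα than in wild-type cells under estradiol with progesterone, and the other genes were taken as their relatives. That comparison is therefore given for all members as a description, without a test. For Asic2 and Clca1 the same holds of every comparison that uses the mice given progesterone.

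The RNA came from mammary luminal cells (LCs), sorted as CD24+CD29lo cells after removal of cells with blood and endothelial surface markers, from female C57Bl/6N mice, and each of 19 single-colour Agilent arrays held 1 mouse. In C451A-ERα mice the germline estrogen receptor α lacks the cysteine that takes up palmitate, the lipid through which part of the receptor is held at the plasma membrane, so the change is in every tissue and not only in LCs. All mice, wild-type ones included, were ovariectomized (at 24 days of age, per the labels) and 10 days later received a pellet that delivered 0.01 mg of 17β-estradiol (E2) over 60 days, alone or with 1.5 mg of progesterone (Pg), for 21 days. The series' design gives their age as 8 weeks. The groups were C451A-ERα with E2+Pg (n = 5), wild-type with E2+Pg (n = 5), C451A-ERα with E2 (n = 5) and wild-type with E2 (n = 4). In the text and plots WT stands for wild-type and C451A for C451A-ERα. The ovaries were absent in every group and no group went without E2, so the data hold no hormone-free level of these genes. Genotype was taken from the labels and was not checked on the arrays. RNA was bulk, so fewer cells of a kind and less RNA per cell cannot be told apart.

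Acid-sensing ion channels and ENaC belong to one superfamily of amiloride-sensitive sodium channels. The first open when protons outside the cell rise and are best known from neurons, where ASIC2 assembles with ASIC1 or ASIC3, while ASIC4 is not known to be gated by acid. ENaC, built of the α, β and γ subunits that Scnn1a, Scnn1b and Scnn1g encode, is the channel through which many epithelia take up sodium from a lumen, and in the kidney it answers to aldosterone. CLCA proteins are secreted or membrane-anchored regulators of chloride conductance rather than channels, and CLCA1, once called gob-5 in the mouse, is a product of mucus-making goblet cells.

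Values are log2 of the median spot signal after quantile normalization of the 19 arrays, so a difference of 1 is a doubling. Levels of different probes are not set against each other. A probe was tested where its signal lay well above background, by the scanner's own flag, on at least 4 arrays, and 9 member probes of 7 genes passed, among 31843 probes in all. Asic4 and both Clca2 probes did not pass. A probe was called where limma's two-sided Benjamini-Hochberg adjusted p over all 31843 probes was under 0.05 and the fold change above 1.5. The labels name 1 mouse for each array and no litter, so p-values reflect the spread between mice. The methods describe the WT mice as littermates, so litters may be shared, and this could not be accounted for. The arrays lay on 5 slides, each with 1 mouse of every group, except that slide 3 had no wild-type E2 mouse.

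The 75th percentile of the signal was 248.5 to 490 per array over a background of 21 to 29, no spot was saturated, and 26478 to 31265 probes were well above background. All 8 pan-luminal markers, Krt8, Krt18 and Epcam among them, were well above background on all 19 arrays, as were all 10 basal markers and all 8 fibroblast markers, which the gate should have left out. Basal markers summed to a signal of 26250 to 37641 in C451A and 22886 to 37763 in WT LCs under E2+Pg, and to 22411 to 36636 in C451A and 31719 to 43428 in WT LCs under E2. Their part in the results was not tested.

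The windows before the annotated starts of 3 member transcripts are shown because of values given below. Asic2 had a higher signal in WT mice with E2+Pg, which was not tested, and Scnn1g an uneven one. RefSeq (GRCm38.p6) gives Asic2 a pair of starts on the minus strand of chromosome 11, preceded by the windows chr11:81152904-81153153 (start A, inside the gene) and chr11:81968397-81968646 (start B, the far end of the gene). Scnn1g has its window at chr7:121734229-121734478, on the plus strand. Each runs 250 bases 5′ to 3′ and ends at the base before the start, and capitals mark a match to one of the motifs searched.
Asic2 start A: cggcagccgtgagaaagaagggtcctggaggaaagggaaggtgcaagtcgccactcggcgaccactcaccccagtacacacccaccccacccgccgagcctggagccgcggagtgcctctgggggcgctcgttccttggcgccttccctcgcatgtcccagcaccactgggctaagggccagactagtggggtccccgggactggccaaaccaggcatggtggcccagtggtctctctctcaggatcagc
Asic2 start B: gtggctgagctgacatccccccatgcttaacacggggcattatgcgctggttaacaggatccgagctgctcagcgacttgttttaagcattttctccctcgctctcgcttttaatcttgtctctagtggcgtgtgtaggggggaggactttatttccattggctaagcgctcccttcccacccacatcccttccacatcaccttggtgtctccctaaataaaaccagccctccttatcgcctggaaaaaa
Scnn1g: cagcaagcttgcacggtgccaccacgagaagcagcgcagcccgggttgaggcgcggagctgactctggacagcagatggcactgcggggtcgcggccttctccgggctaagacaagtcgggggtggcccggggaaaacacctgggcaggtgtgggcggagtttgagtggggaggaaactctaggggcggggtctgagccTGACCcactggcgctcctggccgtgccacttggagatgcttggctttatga

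Both strands were searched for 4 motifs: the estrogen response element GGTCANNNTGACC, its arm GGTCA (which the full element contains), the palindrome GNACANNNTGTNC that progesterone and glucocorticoid receptors bind, and its arm AGAACA. Of all 32851 windows of the same length in the table, 0.0639% held the full estrogen element, 35.2% its arm, 0.387% the progesterone-type palindrome and 16.1% its arm. Neither Asic2 window held any of these letters, while Scnn1g held the arm as TGACC beginning 51 bases before its start. Among the other members with a window, the arm of the estrogen element stood in those of Asic1, Scnn1b and Clca2, and the arm of the progesterone-type element in those of Asic3 and Clca2. The 6 members found in the table had 7 windows, and Asic4, Scnn1a and Clca1 were not among them. The Asic2 windows had 66.4% (start A) and 51.2% (start B) of G and C, against a median of 52.4% over all windows. A match is a string of letters and not a binding site, and its absence says nothing of sites elsewhere.

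Asic2 was read by 1 probe (A_51_P334876, chromosome 11 of mm9, 80693797 to 80693856). With 1 probe for the gene, its starts were not separated. Under E2+Pg its log2 signal in C451A LCs was 5.18 (mouse L56), 5.84 (L18), 5.51 (L61), 5.35 (L53) and 6.16 (L63), and the probe was well above background in 3 of these 5 mice. In WT LCs under E2+Pg it was 7.55 (L57), 7.50 (L62), 7.02 (L44), 7.16 (L47) and 8.16 (L21), well above background in all 5. The groups did not overlap, and the lowest WT mouse lay above the highest C451A mouse. The mean was 5.61 ± 0.40 in C451A and 7.48 ± 0.44 in WT LCs (SD, n = 5 each), a difference of −1.87 on the log2 scale (standard error 0.22) or a 3.66-fold lower mean. Since Asic2 was chosen for this difference, it is not tested here. The fit over all probes called 0.00314% of them in this comparison, which was the Asic2 probe alone and so is no background for it. Groups did not overlap for 2.64% of all probes. From neither value is anything read about Asic2, since the gene was selected on these arrays.

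The same probe under E2 alone is a measurement that the rule for choosing genes did not use, although earlier results of these data were known. C451A LCs had a log2 signal of 5.58 (L4), 4.87 (L58), 5.05 (L27), 4.87 (L76) and 4.93 (L51), and only L4 was well above background. WT LCs under E2 had 5.71 (L67), 5.59 (L50), 5.19 (L72) and 5.77 (L52), with 3 of 4 well above background. Both groups thus lay close to the limit of detection, and they overlapped through C451A mouse L4 and WT mouse L72. The mean was 5.06 ± 0.30 (SD, n = 5) in C451A and 5.57 ± 0.26 (SD, n = 4) in WT LCs, a difference of −0.50 (standard error 0.23). This size rests on the handling of background: it was −1.81 (adjusted p = 0.208) on the processed, background-subtracted signal and −0.28 with a normexp correction (adjusted p = 0.542). The difference of −0.50 had an adjusted p of 0.389 from limma and was not called. An exact permutation test (two-sided) of this probe alone had p = 0.0397, where 0.00794 is the smallest that 5 against 4 mice allow. In this comparison 1 of all probes was called (0.00314%), which was no member, and 3.18% of probes had groups that did not overlap. The adjusted p ran from 0.00348 with array weights, where Asic2 was called at −0.70, to 0.742 without WT mouse L67.

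Across the treatments, Asic2 in C451A LCs averaged 5.61 with E2+Pg against 5.06 with E2, a difference of 0.55 with overlapping mice. In WT LCs it averaged 7.48 with E2+Pg against 5.57 with E2, a difference of 1.91 or 3.77-fold with no overlap. The difference in C451A LCs less that in WT LCs was −1.37 (standard error 0.32). On this scale the means of C451A with E2+Pg (5.61) and WT with E2 (5.57) differed by less than the spread within either group. With the processed signal the treatment difference was 1.91 in C451A and 2.86 in WT LCs, which differ by −0.95. The difference of 0.55 in C451A LCs was thus larger with background subtracted in this way. With normexp the treatment difference was 0.31 in C451A and 1.40 in WT LCs. These differences share the E2+Pg arrays on which Asic2 was picked and are descriptions. Between treatments, groups did not overlap for 4.55% of all probes in C451A LCs and 7.75% in WT LCs.

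**Figure D1:**
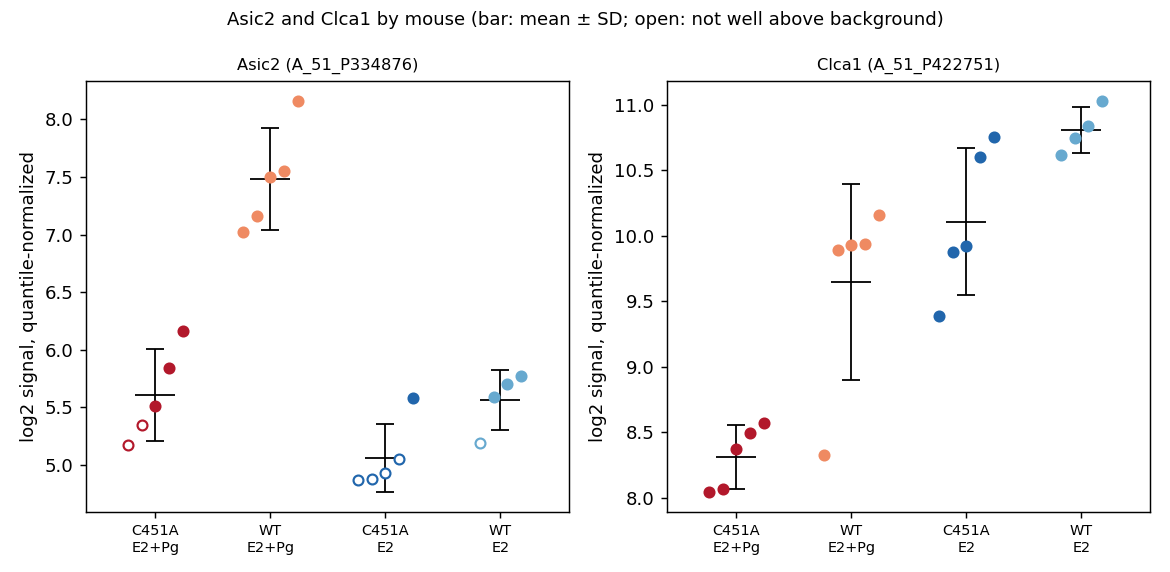
Quantile-normalized log2 signal (y axis) of Asic2 (left) and Clca1 (right) with 1 point for each mouse, by group (x axis), and black bars for the mean ± SD. Open points are mice whose probe was not well above background. Asic2 was at most 6.16 in C451A mice, and it was 7.02 to 8.16 in the 5 WT mice with E2+Pg and at most 5.77 in WT mice with E2, and Clca1 was lowest in C451A mice with E2+Pg (8.04 to 8.57) and in WT mouse L21 (8.33).

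The median signal carries no background subtraction, so the size of a difference at such dim levels depends on how background is handled. With the scanner's processed, background-subtracted signal the Asic2 difference under E2+Pg was −2.77, and with a normexp correction it was −1.37. In every slide the C451A mouse was below the WT mouse, by −2.38 to −1.52 on 5 slides under E2+Pg and by −0.84 to −0.13 on 4 slides under E2. Neuronal and glial markers, the cells in which this channel is best known, were examined beside it. Of 10 such genes 8 passed the filter and 5 were well above background on all arrays, and their summed signal was 5036 to 11882 in C451A and 4641 to 6965 in WT LCs under E2+Pg, and 3490 to 8777 in C451A and 4906 to 7947 in WT LCs under E2. Bright genes such as Mbp weigh most in such a sum. With each marker weighed alike, their mean log2 deviation from the average over arrays was 0.09 ± 0.08 in C451A and −0.05 ± 0.19 in WT LCs under E2+Pg (SD, n = 5 each). Under E2 it was −0.08 ± 0.17 (SD, n = 5) in C451A and 0.05 ± 0.09 (SD, n = 4) in WT LCs. The neurofilament genes Nefl and Nefm were well above background on no array, whereas Snap25 and Mbp were on all 19.

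The 3 genes whose signal ran most like that of Asic2 over the 19 arrays, among 31804 probes, were Syt5 (Pearson r 0.926), Igdcc3 (0.843) and Fam89b (0.837). By rank (Spearman) the correlations were 0.875 for Syt5, 0.621 for Igdcc3 and 0.868 for Fam89b. Igdcc3 was dim, with a mean of 5.61 in WT LCs under E2+Pg and of 4.65 to 4.98 in the other groups. These arrays share the 4 groups, so the correlations describe a shared order of groups. Syt5, which encodes a synaptotagmin, a membrane protein of secretory vesicles, had a log2 signal of 6.33 ± 0.20 in C451A and 7.15 ± 0.30 in WT LCs under E2+Pg (SD, n = 5 each). Under E2 it had 5.78 ± 0.28 (SD, n = 5) in C451A and 5.98 ± 0.37 (SD, n = 4) in WT LCs.

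The other acid-sensing channels had no such pattern. Asic1 (1 probe, chromosome 15 of mm9, 99531436 to 99531495) encodes a main proton-gated subunit of neurons and was well above background on all 19 arrays. Under E2 its log2 signal in C451A LCs was 6.49 (L4), 6.44 (L58), 6.75 (L27), 6.30 (L76) and 6.46 (L51), against 6.55 (L67), 6.21 (L50), 6.10 (L72) and 5.75 (L52) in WT LCs. The mice overlapped, and the difference of 0.34 (95% interval −0.13 to 0.81) was not called, at an adjusted p of 0.586 from limma. Under E2+Pg Asic1 was 5.43 to 6.56 in C451A and 5.62 to 6.56 in WT LCs, almost the same range.

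Asic3, the acid sensor of sensory neurons, was read by a pair of probes on chromosome 5. The first (A_66_P129195) was well above background on 15 arrays and had 5.70 to 6.07 in C451A and 5.54 to 6.93 in WT LCs under E2+Pg, and 5.16 to 6.35 in C451A and 6.00 to 6.48 in WT LCs under E2. Its difference under E2 was −0.45 (95% interval −1.03 to 0.12, adjusted p = 0.546 from limma), and that of the second probe (A_66_P132496, above background on 6 arrays) was −0.07 (−0.37 to 0.23, adjusted p = 0.898). Asic4 was well above background on none of the 10 C451A arrays and on 2 WT arrays, 1 with E2+Pg and 1 with E2, so no fold is given.

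Scnn1a, the α subunit that ENaC needs for its pore, was read by a pair of probes on chromosome 6 that ran apart. The first (A_51_P213691, 125294843 to 125294902 of mm9) had under E2+Pg 11.25 (L56), 9.07 (L18), 9.88 (L61), 10.40 (L53) and 12.07 (L63) in C451A LCs, against 9.68 (L57), 9.72 (L62), 9.57 (L44), 9.84 (L47) and 10.22 (L21) in WT LCs. Under E2 it had 10.38 (L4), 11.80 (L58), 10.91 (L27), 11.92 (L76) and 11.45 (L51) in C451A LCs, against 10.85 (L67), 10.35 (L50), 11.49 (L72) and 10.65 (L52) in WT LCs. C451A mice with E2+Pg were spread over 3 log2 units, while the WT mice with E2+Pg lay within 1 unit and all below the WT mice with E2.

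Between treatments in C451A LCs this Scnn1a probe averaged 10.53 ± 1.17 with E2+Pg and 11.29 ± 0.64 with E2 (SD, n = 5 each), a difference of −0.76 (standard error 0.43, adjusted p = 0.376 from limma). In WT LCs it averaged 9.80 ± 0.25 with E2+Pg (SD, n = 5) and 10.84 ± 0.48 with E2 (SD, n = 4), a difference of −1.03 (standard error 0.45). These WT groups did not overlap, which held for 7.75% of all probes. An exact permutation test (two-sided), 1 of 23 that were not adjusted, had p = 0.00794, the smallest possible. The adjusted p from limma was 0.290 and the probe was not called. The 2 treatment differences were not shown to differ (0.28, 95% interval −1.03 to 1.58, adjusted p = 0.833). In these comparisons 600 of all probes were called in C451A LCs (1.88%), 344 in WT LCs (1.08%) and 0 for the interaction (0%), where 3015 had an unadjusted p under 0.05 in limma. None of the 7 member probes tested was called in any of them.

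The second Scnn1a probe (A_66_P119584, 125293939 to 125293998) had means of 7.82 ± 0.16 in C451A and 8.04 ± 0.27 in WT LCs under E2+Pg (SD, n = 5 each), and under E2 of 7.92 ± 0.44 (SD, n = 5) in C451A and 8.22 ± 0.10 (SD, n = 4) in WT LCs. Between treatments the second probe was at −0.18 in WT LCs (95% interval −0.57 to 0.21, adjusted p = 0.640 from limma), with overlapping mice. Its exact permutation test in WT LCs, also not adjusted, had p = 0.302. In C451A LCs it was at −0.09 (adjusted p = 0.826 from limma). The WT groups without overlap between treatments were thus a result of the first probe only. Between the genotypes under E2 the first probe was at 0.45 (95% interval −0.50 to 1.41, adjusted p = 0.744) and the second at −0.30 (−0.69 to 0.09, adjusted p = 0.563), both from limma. The signs were thus opposite between probes of one gene, and no direction is given for Scnn1a between genotypes.

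Scnn1b and Scnn1g encode the β and γ subunits and lie near each other on chromosome 7. The Scnn1b probe was dim, well above background on 10 arrays, and ran from 5.01 to 5.81 over all mice. Its difference between C451A and WT LCs was 0.10 under E2+Pg and 0.12 under E2 (95% interval −0.21 to 0.46, adjusted p = 0.818 from limma). Group means lay within 5.39 to 5.51, closer together than the mice of any one group.

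Scnn1g (A_51_P245558, chromosome 7 of mm9, 128911434 to 128911493) was well above background in 2 mice of each C451A group, in 5 of 5 WT mice with E2+Pg and in 2 WT mice with E2. Under E2+Pg its log2 signal in C451A LCs was 5.17 (L56), 7.29 (L18), 5.07 (L61), 5.33 (L53) and 5.20 (L63), against 5.97 (L57), 5.42 (L62), 6.11 (L44), 6.38 (L47) and 7.23 (L21) in WT LCs. All C451A mice but L18 lay below all WT mice. The mean difference was −0.61 (standard error 0.38), −1.03 without C451A mouse L18 and −0.36 without WT mouse L21. Between treatments the difference in C451A LCs was 0.14 (95% interval −0.66 to 0.94, adjusted p = 0.884 from limma). In WT LCs Scnn1g averaged 6.22 ± 0.66 with E2+Pg (SD, n = 5) and 5.58 ± 0.21 with E2 (SD, n = 4), a difference of 0.64 (standard error 0.40) with an adjusted p of 0.439 from limma. This was 0.39 without L21.

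**Figure D2:**
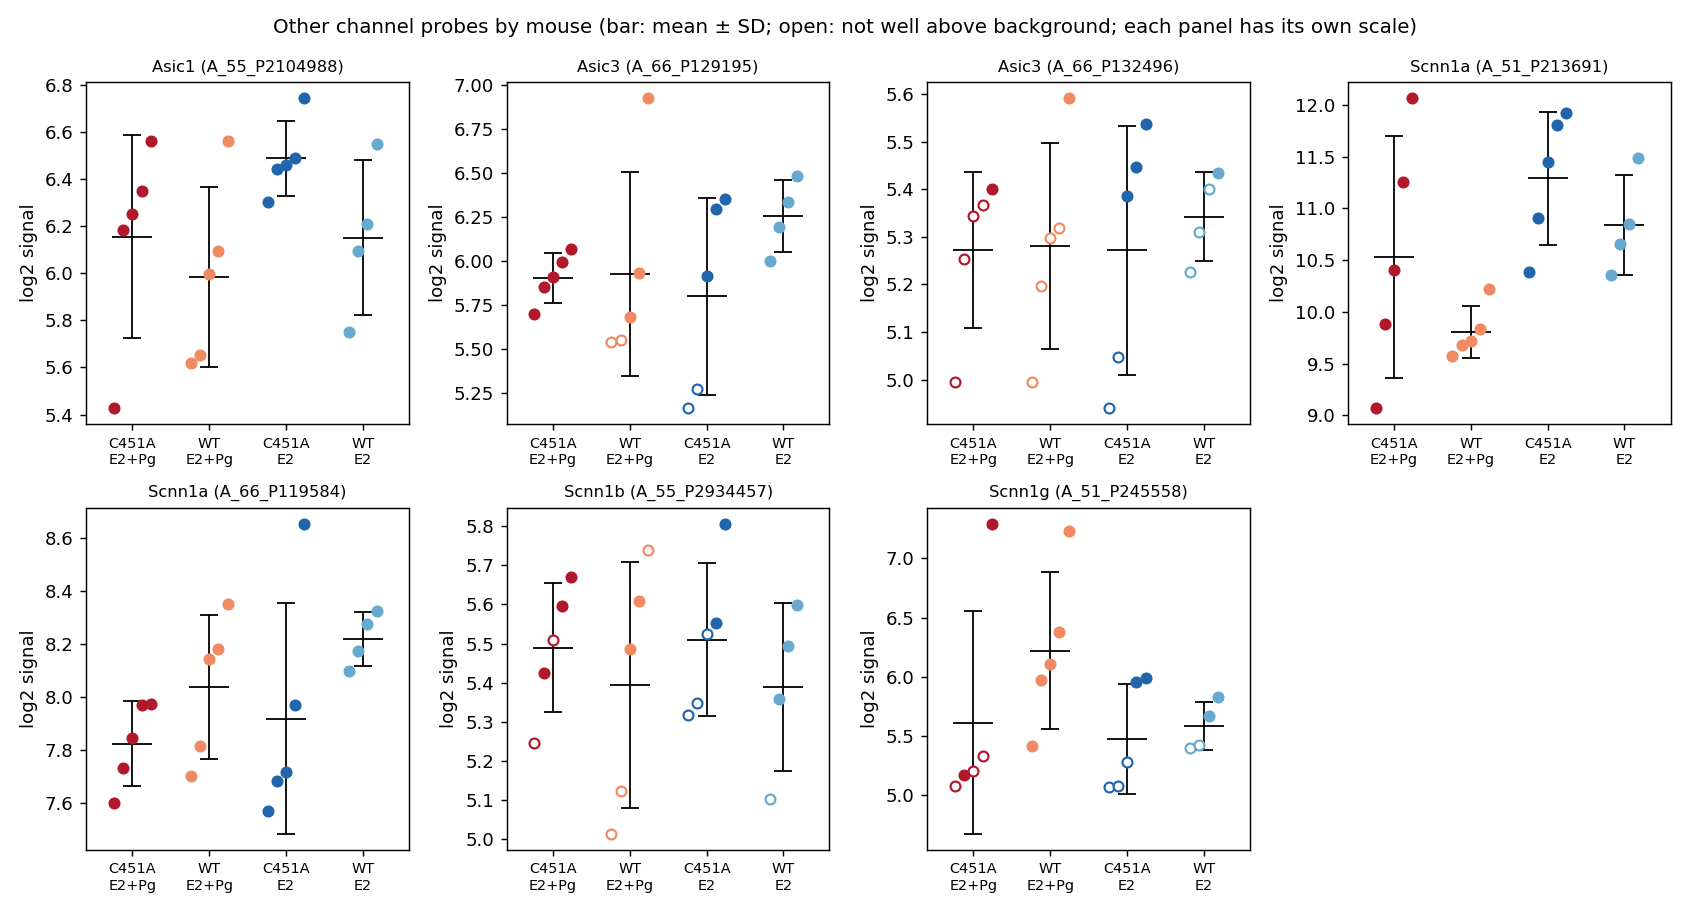
Quantile-normalized log2 signal (y axis, with its own scale in each panel) of the 7 other member probes that passed the filter, with 1 point for each mouse, by group (x axis), and black bars for the mean ± SD. Open points are mice whose probe was not well above background. The first Scnn1a probe lay at 9.57 to 10.22 in WT mice with E2+Pg and at 10.35 to 11.49 in WT mice with E2, and Scnn1g at 7.29 in C451A mouse L18 against at most 5.33 in the other C451A mice with E2+Pg.

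Clca1 was read by 1 probe (A_51_P422751, chromosome 3 of mm9, 144667558 to 144667617), well above background on all 19 arrays. Under E2+Pg its log2 signal in C451A LCs was 8.49 (L56), 8.07 (L18), 8.04 (L61), 8.57 (L53) and 8.37 (L63). In WT LCs under E2+Pg it was 9.93 (L57), 9.93 (L62), 9.89 (L44), 10.16 (L47) and 8.33 (L21). Mouse L21 lay among the C451A mice and the other 4 WT mice lay at least 1 unit above all of them. The mean was 8.31 ± 0.24 in C451A and 9.65 ± 0.75 in WT LCs (SD, n = 5 each), a difference of −1.34 (standard error 0.30) or a 2.53-fold lower mean, and −1.67 without L21. Clca1 was chosen for this difference, so no test is given.

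Under E2 alone, which the rule for choosing genes did not use, Clca1 in C451A LCs was 9.87 (L4), 9.92 (L58), 9.39 (L27), 10.60 (L76) and 10.76 (L51), against 10.62 (L67), 10.84 (L50), 11.03 (L72) and 10.74 (L52) in WT LCs. All C451A mice but L51 lay below all WT mice, L76 by a small margin. The mean was 10.11 ± 0.56 (SD, n = 5) in C451A and 10.81 ± 0.17 (SD, n = 4) in WT LCs. The difference of −0.70 (standard error 0.32) had an adjusted p of 0.371 from limma and was not called. The exact permutation test of this probe alone, two-sided, gave p = 0.0635. Over the processing alternatives the adjusted p was 0.165 to 0.678 and the difference −0.86 to −0.28, the smallest with array weights.

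With progesterone Clca1 had a lower signal in both genotypes. In C451A LCs it averaged 8.31 with E2+Pg against 10.11 with E2, a difference of −1.80 or 3.48-fold with no overlap. In WT LCs it averaged 9.65 with E2+Pg against 10.81 with E2, a difference of −1.16 or 2.23-fold, again with no overlap, and −0.83 without L21. Of all probes, 4.55% in C451A and 7.75% in WT LCs had treatment groups that did not overlap. The genotype by progesterone term was −0.64 (95% interval −1.55 to 0.28). The levels thus ran from WT with E2 at the top through C451A with E2 and WT with E2+Pg to C451A with E2+Pg, and each group overlapped with its neighbour in that order. Asic2 had the other direction with progesterone, with a higher mean under E2+Pg in each genotype. These Clca1 values are descriptions for the reason given above.

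Within slides the C451A mouse had less Clca1 signal than the WT mouse on 4 of 5 slides under E2+Pg (−1.87 to 0.05) and on 3 of 4 under E2 (−0.92 to 0.01). The exception was slide 5 under both treatments, which under E2+Pg holds mouse L21. L21 also had the highest Asic2 and Scnn1g signals among WT mice with E2+Pg, so it was not low for all members. With slide as a block in the fit, the Clca1 difference under E2 was −0.64 (adjusted p = 0.543) and that of Asic2 was −0.46 (adjusted p = 0.471), both from limma.

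**Figure D3:**
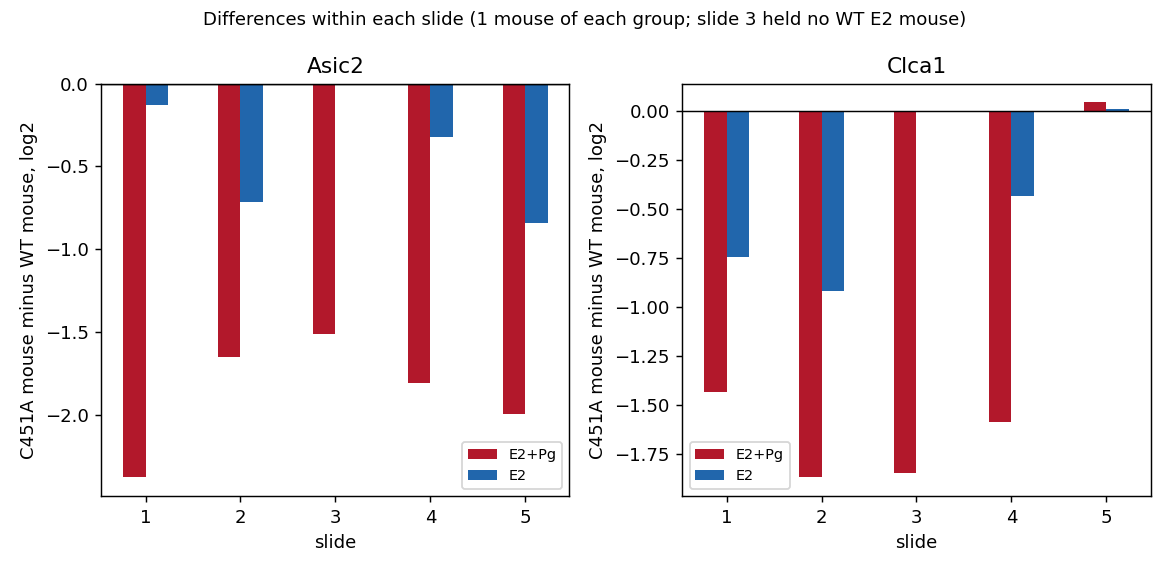
Log2 signal of the C451A mouse less that of the WT mouse on the same slide (y axis) for each slide (x axis), for Asic2 (left) and Clca1 (right), under E2+Pg (red) and E2 (blue). Bars start at 0. Asic2 lies at −2.38 to −1.52 under E2+Pg and −0.84 to −0.13 under E2, and Clca1 is near 0 (0.05 and 0.01) on slide 5 and below 0 on the other slides.

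The genes whose signal ran most like that of Clca1 over the 19 arrays were Ppm1j (Pearson r 0.948), Sprr1a (0.915) and Prom1 (0.899). Ppm1j encodes a protein phosphatase, Sprr1a a protein of the cornified envelope of squamous epithelia and Prom1 a surface protein of luminal cells that sense hormones. Prom1 had 6.91 ± 0.35 in C451A and 7.84 ± 0.54 in WT LCs under E2+Pg (SD, n = 5 each), and under E2 8.07 ± 0.22 (SD, n = 5) in C451A and 8.46 ± 0.21 (SD, n = 4) in WT LCs. Of the 11 markers of hormone-sensing cells, Prom1 included, all passed the filter and 10 were well above background on all arrays. Their summed signal was 30916 to 95120 in C451A and 37076 to 72367 in WT LCs under E2+Pg, and 111690 to 164590 in C451A and 71428 to 158150 in WT LCs under E2. Between genotypes these sums overlapped under both treatments, and between treatments they overlapped in WT but not in C451A LCs. Weighed alike, the 11 markers had a mean log2 deviation from the average over arrays of −0.37 ± 0.35 in C451A and −0.35 ± 0.25 in WT LCs under E2+Pg (SD, n = 5 each). Under E2 it was 0.56 ± 0.11 (SD, n = 5) in C451A and 0.20 ± 0.34 (SD, n = 4) in WT LCs, with overlapping mice. The list as a whole thus had a higher mean in C451A LCs under E2, where Prom1 and Clca1 had a lower one. Epidermal markers, 5 of 6 on the array, summed to 401 to 1709 in C451A and 588 to 736 in WT LCs under E2+Pg, and to 453 to 921 in C451A and 490 to 1473 in WT LCs under E2. With each marker weighed alike, their mean log2 deviation from the average over arrays was −0.21 ± 0.52 in C451A and 0.16 ± 0.30 in WT LCs under E2+Pg (SD, n = 5 each). Under E2 this was −0.17 ± 0.13 (SD, n = 5) in C451A and 0.28 ± 0.27 (SD, n = 4) in WT LCs. Mice of the genotypes overlapped under both treatments. The part of these markers in the Clca1 values was not tested.

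Clca2, an adhesion-linked family member of stratified epithelia in human tissue, was read by a pair of probes that were well above background on no array, so it has no level here.

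**Figure D4:**
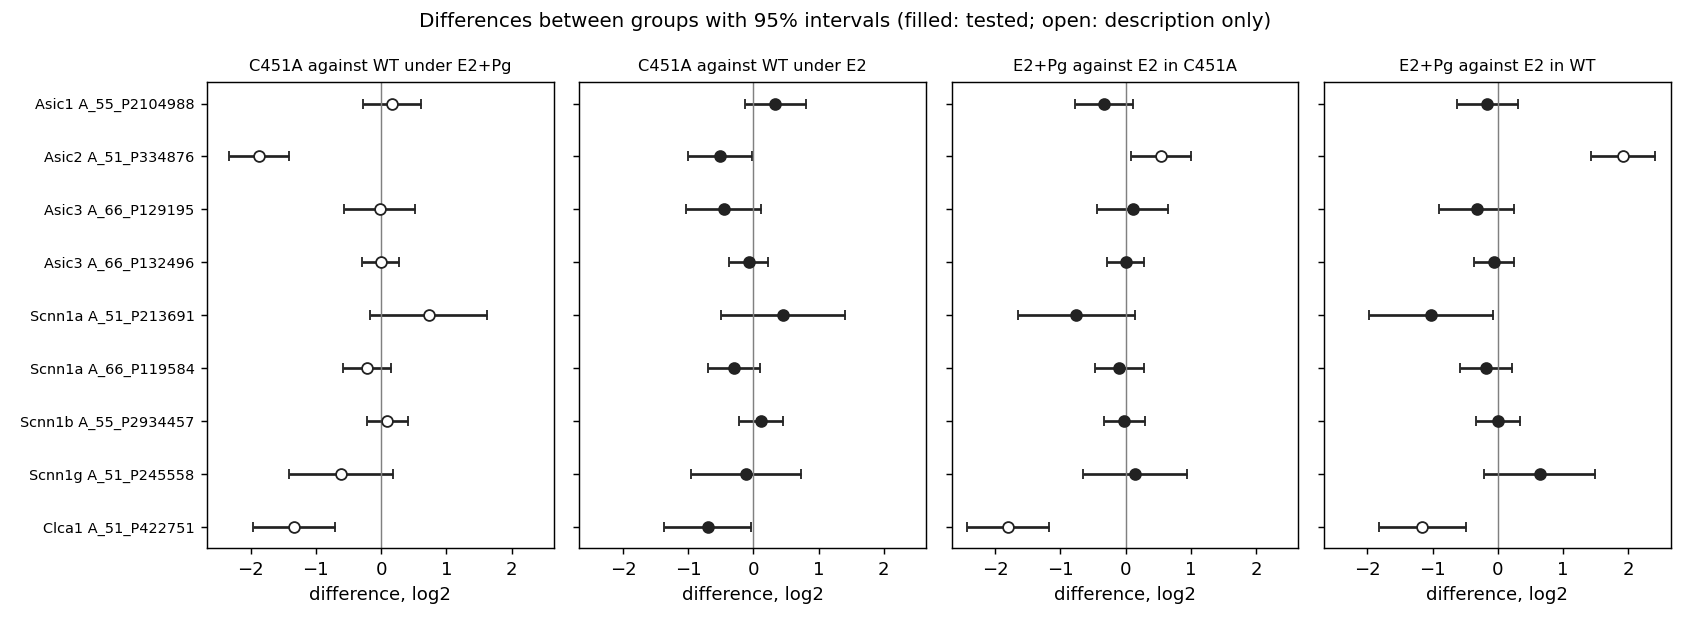
Difference in log2 signal (x axis) with its 95% interval for each member probe that passed the filter (rows), in 4 comparisons (panels). Filled points were tested and open points are descriptions, since the genes were chosen on those arrays. Asic2 is at −1.87 and Clca1 at −1.34 between genotypes under E2+Pg, and no filled point was called.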

How the data were processed

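Single-colour Cy3 arrays (Agilent mouse, 19 mice) were scanned by the authors with Agilent Feature Extraction 10.10.1.1, and the deposited scanner files hold spot intensity values in arbitrary units. The authors' value table holds log2 values that they filtered, corrected for batch and normalized by quantiles, and it served as an alternative. Here the median signal was taken to log2 without background subtraction, 1370 outlier spots were left out, spots of a probe were averaged and arrays were normalized by quantiles. Probes well above background on at least 4 arrays were fitted with limma 3.58.1 (R 4.3.3), with 4 group means over all arrays (15 residual degrees of freedom). Exact permutation tests were added for 23 single comparisons of a member probe and were not adjusted. Intervals are 95%. The scripts were tested on simulated data. Alternatives were other background corrections and scalings, filters, slide as a fixed or random block, array weights, the authors' table, 1 probe per gene, only the compared groups, and leaving out each mouse. Labels gave genotype and treatment, and array identifiers gave the slide. The age at ovariectomy follows the labels, from which the methods differ slightly. Members, lists and tests were chosen with earlier results of these data known. Named genes are all 9 members, called genes of the 4 lists, the 3 probes most correlated with Asic2 and with Clca1 among other genes, and cell type markers. Gene names are those of the array files, and probe positions are on mm9.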

Additional observations from a re-analysis of the deposited data

Results flagged for a closer look

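Single mice stood apart from their own group in 4 of the 36 combinations of a member probe and a group. A rule of this kind marks about 1 in 20 groups by chance. Asic2 in C451A mouse L4 under E2 was 5.58, where the next mouse of its group was at 5.05. Asic3 (A_66_P129195) in WT mouse L57 under E2+Pg was 6.93, above a next value of 5.93. Scnn1g in C451A mouse L18 under E2+Pg was 7.29, above a next value of 5.33. Clca1 in WT mouse L21 under E2+Pg was 8.33, below a next value of 9.89.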

How the results depend on the processing

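Under E2 the count of member probes called was 0 and became 2 with array weights, namely Asic2 (−0.70, adjusted p = 0.00348) and the first Scnn1a probe (0.91, adjusted p = 0.0293). With these weights 3131 of all probes were called under E2, against 1, and they favour mice close to their own group. In the other comparisons tested, and under E2 in the other alternatives, the count of member probes called stayed at 0, also when any 1 mouse was left out (0 to 0). Between genotypes under E2, Asic2 and Clca1 kept their sign in every alternative run. They also did so under E2+Pg, from which nothing is read, since both genes were chosen for that sign on those arrays. Calls over all probes depended on single mice: between genotypes 1291 probes were called under E2 without WT mouse L72 and 1432 under E2+Pg without C451A mouse L18 (292 without WT mouse L21). Over all alternatives the counts ran from 0 to 3131 under E2, 0 to 4154 under E2+Pg, 138 to 1126 for progesterone in C451A LCs, 35 to 2186 in WT LCs (35 without L52) and 0 to 19 for the interaction. Between E2+Pg and E2 in C451A LCs, Fxyd4 lost its call in 21 of 30 alternatives. The labels give each mouse its own number and pair none across groups, so matching was by slide, and with slide as a block no member probe was called. Signals near background limit what Asic2, Asic3, Scnn1b and Scnn1g can show, and the number of arrays limits precision.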

Other observations

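Relatives of the 9 genes that were not part of the set were read from the same arrays. The mouse genes Clca3a1 and Clca3a2, neighbours of Clca1 in the CLCA cluster, were well above background on all 19 arrays. Their sequences are close enough that a probe may bind both transcripts, so their values are uncertain. The 3 probes of Clca3a1 had differences between C451A and WT LCs of 0.59, 0.60 and 0.50 under E2+Pg (adjusted p = 0.439, 0.273 and 0.456) and of 0.07, −0.22 and −0.16 under E2 (adjusted p = 0.968, 0.839 and 0.923), none of them called by limma. Clca3a2 was at 0.40 under E2+Pg (adjusted p = 0.605) and 0.07 under E2 (adjusted p = 0.969). Under E2+Pg these signs were opposite to that of Clca1, a comparison that was not tested. Clca3b, well above background on 1 or 2 arrays of each group, had the sign of Clca1, at −0.27 under E2+Pg (adjusted p = 0.614) and −0.55 under E2 (adjusted p = 0.533), and was not called. Clca4b and Clca4c-ps were well above background on no array, and Clca4a on 1 array. Asic5 had 1 probe above background on 1 array and another on none.

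Genes that work beside these channels were counted in 4 lists. Of 28 partners and regulators of the acid-sensing and ENaC channels (such as the proteases that cleave ENaC and the mineralocorticoid pathway) 25 were tested, of 33 sodium transporters and channels 28, of 55 anion channels and transporters 36, and of 23 genes of proton sensing and pH 12. Over all lists and the 5 comparisons together, 1 call was made, between E2+Pg and E2 in C451A LCs, where 1.88% of all probes were called. Fxyd4, a small regulator of the sodium pump, was lower with E2+Pg in C451A LCs, at a log2 signal of 6.94 ± 0.43 with E2+Pg against 8.20 ± 0.69 with E2 (SD, n = 5 each). The difference was −1.26 (standard error 0.32, adjusted p = 0.049 from limma), just under the threshold, and over the alternatives the adjusted p was 0.00974 to 0.155. In WT LCs Fxyd4 averaged 8.32 with E2+Pg and 9.06 with E2, a difference of −0.74 (adjusted p = 0.315), and the treatment differences were not shown to differ (−0.52, adjusted p = 0.574). The median difference of the lists between genotypes under E2 was 0.07 for the partners, −0.02 for sodium transport, 0.02 for anion channels and −0.20 for proton sensing, beside 0.03 over all probes tested. Under E2+Pg it was 0.04 for the partners, −0.01 for sodium transport, 0.09 for anion channels and 0.01 for proton sensing, beside −0.01 over all probes.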
